A study of Mus musculus with 6 samples.

Results

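The genes described here are 10 regulators of the cell division cycle: 5 E2F transcription factors (E2f1, E2f2, E2f3, E2f7 and E2f8), the pocket proteins Rb1, Rbl1 and Rbl2, and the transcription factors Mybl2 and Foxm1. They were chosen by name, with earlier results of these data known, and all 10 were measured among 19938 genes tested. Each gene is read by 1 probe set annotated with that symbol alone, except E2f3, for which the brighter of its probe sets was used. The study measured RNA on 3 arrays of mouse lung endothelial cells (lECs, C57BL/6 background) stably transfected with the pcDNA3.1/Hygro(-) vector carrying full-length mouse L1CAM, and on 3 arrays of lECs carrying the same vector empty. L1CAM is an adhesion protein at the cell surface, first studied in the nervous system. Both groups were grown for 4 days to confluence on gelatin in medium with 20% serum, heparin and endothelial growth supplement, so neither group was sampled in sparse, freely growing culture. The labels call the replicates biological and the series text calls them independent experiments. Whether each transfectant was a pool or a clone is not stated in the labels, and the p-values measure the spread between these cultures.

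E2F factors bind DNA as partners of DP proteins and switch genes of DNA replication on or off. E2f1, E2f2 and E2f3 are the activators, E2f7 and E2f8 are atypical repressors that need no DP partner, and the pocket proteins hold E2F factors inactive until cyclin-dependent kinases phosphorylate them. Mybl2 encodes B-MYB, which joins the MuvB complex in S phase, and Foxm1 encodes a forkhead factor that follows it there to drive genes of mitosis. In quiescent cells the pocket protein p130, from Rbl2, holds MuvB in the repressive DREAM complex instead. Several of these regulators are themselves known E2F targets, so their RNA marks cycling cells.

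Transfection was checked on L1cam itself, which was 3.75 higher on the log2 scale in L1CAM cells (limma adjusted p = 0.000112). L1cam read 10.49, 10.60 and 10.73 in L1CAM replicates 1, 2 and 3, against 6.50, 6.77 and 7.31 in control replicates 1, 2 and 3. All 10 endothelial markers exceeded the array median on 3 or more arrays, and 1 of them passed the test, the junction gene Cldn5 at -0.22. No marker passed among 6 of leukocytes, 6 of epithelium and 7 of fibroblasts and mural cells, and 2 of these, Cd79a and Pdgfra, had an unadjusted limma p under 0.05. On 3 or more arrays, 2, 0 and 4 of these exceeded the median, which is not a detection limit. The leukocyte marker Cd68, named after its values were seen, was bright, with means of 12.07 in L1CAM and 12.23 in control cells. L1CAM replicate 1 stood apart from the other arrays. Across genes it correlated with L1CAM replicates 2 and 3 at 0.9948 and 0.9951, and with the control arrays at 0.9935 to 0.9952. L1CAM replicates 2 and 3 correlated with each other at 0.9986, and the control arrays among themselves at 0.9982 to 0.9986. Calls of the regulators and of the pathway lists are therefore also given without L1CAM replicate 1. That array was singled out from these same values. Where it lay nearest the control arrays, leaving it out enlarges the difference by construction and can narrow the L1CAM spread. Calls and p-values of that fit are therefore no independent support. All 10 regulators lay above the median of every array, and the number of arrays limits the precision.

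Promoter windows were available for 8 of the 10 genes in RefSeq (GRCm38.p6), from 250 bases before to 50 bases after an annotated start, and were read for letters known from cycle genes. The E2F consensus was searched as TTTGGCGC, TTTCCCGC, TTTCGCGC and TTTGCCGC, its core as GGCGGGA, the CHR element of late cycle genes as TTTGAA and the CCAAT box as CCAAT. Both strands were read, and the core can overlap the consensus form TTTCCCGC on the opposite strand. Of 32851 mouse windows, 2.26% held a consensus form, 11.3% the core, 17.9% the CHR letters and 37.4% the CCAAT letters. Among the 8 genes, 4 held a consensus form, 2 the core, 4 the CHR letters and 4 the CCAAT letters in at least 1 window. The 8 genes had 10 windows, 2 each for E2f2 and E2f3, so these counts per gene are not directly comparable with shares per window. The 200 bases before the start are shown for both atypical E2Fs, which fell, for E2f3, whose groups overlapped, and for Mybl2 and Rbl1, with the matches in capitals (5′ to 3′ on the gene's strand).
E2f8: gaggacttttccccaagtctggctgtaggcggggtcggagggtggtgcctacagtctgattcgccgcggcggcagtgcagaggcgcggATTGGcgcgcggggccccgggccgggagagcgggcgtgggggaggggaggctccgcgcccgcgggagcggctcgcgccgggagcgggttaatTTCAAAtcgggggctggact
E2f7: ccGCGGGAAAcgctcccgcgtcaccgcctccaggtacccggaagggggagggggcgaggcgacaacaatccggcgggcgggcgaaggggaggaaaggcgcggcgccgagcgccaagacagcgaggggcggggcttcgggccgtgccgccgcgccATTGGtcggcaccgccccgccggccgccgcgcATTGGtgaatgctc
E2f3: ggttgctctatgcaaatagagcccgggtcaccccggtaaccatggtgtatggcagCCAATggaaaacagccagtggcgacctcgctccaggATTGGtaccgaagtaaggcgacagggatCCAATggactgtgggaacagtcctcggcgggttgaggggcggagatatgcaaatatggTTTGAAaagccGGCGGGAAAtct
Mybl2: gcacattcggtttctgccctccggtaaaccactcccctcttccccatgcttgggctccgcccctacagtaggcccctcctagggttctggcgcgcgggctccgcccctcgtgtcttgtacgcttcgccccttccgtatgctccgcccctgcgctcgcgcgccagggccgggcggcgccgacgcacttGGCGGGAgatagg
Rbl1: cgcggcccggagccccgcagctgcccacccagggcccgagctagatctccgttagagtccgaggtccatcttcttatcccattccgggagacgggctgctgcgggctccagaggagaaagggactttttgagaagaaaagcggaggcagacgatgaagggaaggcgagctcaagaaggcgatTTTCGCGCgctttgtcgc
These stretches lie at chr7:48881597-48881796 on the minus strand for E2f8, chr10:110745239-110745438 on the plus strand for E2f7, chr13:29986064-29986263 on the minus strand for E2f3, chr2:163054435-163054634 on the plus strand for Mybl2 and chr2:157204535-157204734 on the minus strand for Rbl1. With the base before the start counted as -1, the CHR letters of E2f8 lie at -20 to -15. E2f7 has a consensus form at -198 to -191 and CCAAT letters at -46 and -14. E2f3 carries all 4 kinds of letters, with its consensus form at -11 to -4 overlapping the core at -12 to -6. Rbl1 has a consensus form at -18 to -11 and Mybl2 the core at -13 to -7. E2f2, whose first window holds TTTGGCGC after the start, shows it in this 30-base stretch, chr4:136172294-136172323 on the plus strand.
E2f2: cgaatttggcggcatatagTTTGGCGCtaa
The only E2f1 window, whose 200 bases before the start lie at chr2:154569427-154569626 on the minus strand, held none of the letters searched. Other starts of E2f1 were not read, so this absence describes that window and not the E2f1 promoter as a whole. The Rbl2 window held the CHR letters at -201 to -196. A match describes the sequence and is no measure of binding.

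The comparison of L1CAM with control cells asks which RNAs differ between lECs transfected with L1CAM and lECs with the empty vector. As pool or clone is not stated, an effect of L1CAM and a difference between the transfected lines cannot be told apart. The late cycle activator Foxm1 and the atypical repressors E2f8 and E2f7 fell in L1CAM cells, E2f8 2.93-fold, Foxm1 2.37-fold and E2f7 1.91-fold (n = 3 arrays per group). None of the 10 regulators rose. Over all genes tested, 15.0% were called, 8.19% lower and 6.85% higher, by limma with Benjamini-Hochberg adjustment at 0.05, against 3 of 10 and 0 of 10 of the regulators. The remaining 7 did not pass the test. Without L1CAM replicate 1 the test called 9 of 10 lower, against 12.9% of all genes in that fit. Without any 1 of the other arrays it called 0 or 1, against 2.90% to 4.80% of all genes. The median difference (L1CAM minus control, log2) was -0.64 over the 10 regulators and 0.02 over all genes. In such bulk samples, fewer cycling cells and less of these RNAs per cell cannot be told apart. The cycling markers Mki67 and Top2a moved the same way (both -1.27, limma adjusted p = 0.0378 and 0.0455), and their part in the result was not tested. In L1CAM replicate 1 they stood at -0.42 and -0.37 from the control mean. Each passed in 1 of the 6 fits that leave out an array, the one without L1CAM replicate 1. Both are also counted among the G2/M genes below.

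**Figure D1:**
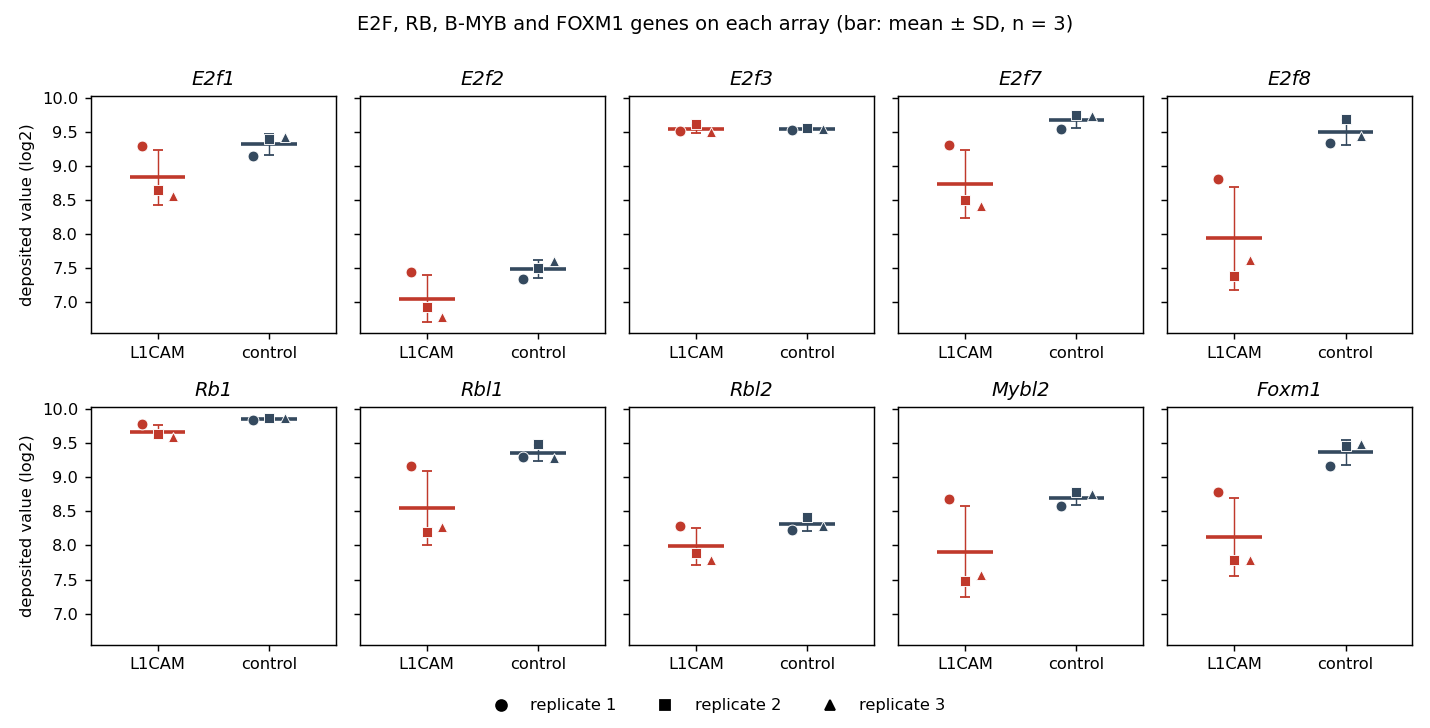
Deposited log2 values of the 10 regulators on each array, with L1CAM arrays left of control arrays in each panel, symbols for the replicate number, and bars for the mean ± SD (n = 3). L1CAM replicate 1 is the highest L1CAM array in 9 of 10 panels, all but that of E2f3, whose groups overlap.

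None of the activator E2Fs passed the test. E2f1, which drives entry into S phase, read 9.29, 8.65 and 8.56 in L1CAM replicates 1, 2 and 3, against 9.14, 9.39 and 9.43 in control replicates 1, 2 and 3 (log2). L1CAM replicate 1 lay within the control range and replicates 2 and 3 lay below it. The difference was -0.49 (SE 0.19, 95% interval -0.92 to -0.06), with a limma adjusted p of 0.127. E2f2, an activator much like E2f1, read 7.44, 6.93 and 6.78 in L1CAM cells, against 7.35, 7.51 and 7.61 in control cells. The same 2 L1CAM arrays were low, and the groups overlapped. Its difference was -0.44 (SE 0.16, limma adjusted p = 0.113).

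E2f3, the third activator, read 9.52, 9.62 and 9.49 in L1CAM cells and 9.53, 9.56 and 9.55 in control cells. Its groups overlapped fully. The difference was 0.00 by rounding (-0.0024, SE 0.06), and the 95% interval of -0.13 to 0.13 excludes a change as large as that of E2f7, E2f8 or Foxm1. A second, dimmer E2f3 probe set measured 8.18, 8.22 and 8.11 in L1CAM cells and 8.09, 8.09 and 8.08 in control cells, a difference of 0.08. On that probe set every L1CAM array lay above every control array by a small step, and it was not tested alone. L1CAM replicates 2 and 3, the low arrays for E2f1 and E2f2, stood at 0.07 and -0.05 from the control mean of E2f3. The promoter window shown for E2f3 above holds all 4 kinds of searched letters, and the other E2f3 window holds only the core. Whether such letters go with the differences was not tested.

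Both atypical repressors fell. E2f8 read 8.80, 7.39 and 7.63 in L1CAM cells, against 9.34, 9.69 and 9.44 in control cells. Every L1CAM array lay below every control array. The difference of -1.55 (SE 0.33, 95% interval -2.31 to -0.79, limma adjusted p = 0.0201) was the 48th lowest of 19938 genes. E2f7, the close relative of E2f8, read 9.31, 8.50 and 8.41 in L1CAM cells and 9.54, 9.74 and 9.73 in control cells. Again the groups did not overlap, and the difference was -0.93 (SE 0.22, limma adjusted p = 0.0283). The calls depended on single arrays and on the variance estimate. Without L1CAM replicate 1 both passed, at -1.98 for E2f8 (adjusted p = 2.47e-05) and -1.22 for E2f7 (adjusted p = 3.49e-05). Without any 1 of the other 5 arrays neither passed, with limma adjusted p up to 0.0873 for E2f8 and 0.107 for E2f7. With all arrays both calls also ended under the trend and robust prior (adjusted p = 0.0576 and 0.0605 for E2f8 and E2f7) and under an ordinary linear model (0.143 and 0.162), and that of E2f7 under the replicate block (0.0525).

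The pocket protein genes all had negative differences, and none passed the test. Rbl1, which encodes p107, the pocket protein that is itself a known E2F target, read 9.17, 8.20 and 8.26 in L1CAM cells, against 9.30, 9.49 and 9.28 in control cells. L1CAM replicate 1 was close under the lowest control array and the other L1CAM arrays were far below it. The difference was -0.81 (SE 0.24, 95% interval -1.36 to -0.26), with a limma adjusted p of 0.0575, just over the threshold. Rb1, the retinoblastoma protein gene, read 9.78, 9.64 and 9.59 in L1CAM cells and 9.83, 9.87 and 9.87 in control cells. Its L1CAM arrays were all lower by a small step, and the difference was -0.19 (SE 0.06, limma adjusted p = 0.0959). Rbl2, which encodes p130, read 8.29, 7.88 and 7.79 in L1CAM cells, against 8.23, 8.42 and 8.28 in control cells. The groups overlapped, and the difference was -0.32 (SE 0.13, limma adjusted p = 0.141). The 95% interval, not adjusted for the number of genes, ran from -0.62 to -0.02. p130 is known as the pocket protein of quiescent cells, but the arrays measured its RNA and not the protein. Whether the cultures differed in quiescent cells was not tested.

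Of the MuvB partners, Foxm1 fell and Mybl2 did not pass the test. Foxm1 read 8.78, 7.79 and 7.79 in L1CAM cells, against 9.16, 9.46 and 9.49 in control cells. The groups did not overlap, with L1CAM replicate 1 between the other L1CAM arrays and the control arrays. The difference was -1.25 (SE 0.25, 95% interval -1.84 to -0.66, limma adjusted p = 0.0181). It passed without L1CAM replicate 1 (-1.58, adjusted p = 3.28e-05) and without control replicate 1, but not without any 1 of the other 4 arrays (adjusted p up to 0.0791), and not under an ordinary linear model (adjusted p = 0.134). Mybl2 read 8.68, 7.47 and 7.57 in L1CAM cells and 8.57, 8.78 and 8.75 in control cells. L1CAM replicate 1 lay within the control range while replicates 2 and 3 stood at -1.23 and -1.13 from the control mean. The difference was -0.80 (SE 0.29, limma adjusted p = 0.107).

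Which of the 10 regulators passed depended on single arrays. The L1CAM arrays all lay below the control arrays for 5 of 10 (E2f7, E2f8, Rb1, Rbl1 and Foxm1), against 16.0% of all genes tested. On the probe sets used, the L1CAM arrays all lay above the control arrays for none of the 10, against 18.6% of all genes. For E2f1, E2f2, Rbl2 and Mybl2, L1CAM replicate 1 was at or above the lowest control array. Measured from the control mean, L1CAM replicate 1 showed 37.4% of the mean shift of replicates 2 and 3 for Foxm1, 34.7% for E2f8 and 29.9% for E2f7. That share was 30.6% for Rb1, 16.7% for Rbl1, 8.05% for E2f2, 3.96% for Rbl2, 3.73% for E2f1 and 2.35% for Mybl2. A share from a single array has no replicate error, and it is small by construction where that array overlaps the control arrays. The SD was larger in L1CAM cells than in control cells for all 10 genes, at 0.06 to 0.76 against 0.01 to 0.18. Without L1CAM replicate 1, 9 of 10 were called lower, all but E2f3. Without L1CAM replicate 2, L1CAM replicate 3, control replicate 2 or control replicate 3, none was, and without control replicate 1 only Foxm1 was. At an unadjusted limma p under 0.05, 9 of 10 were lower and 0 higher with all arrays, against 14.1% of all genes lower.

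**Figure D2:**
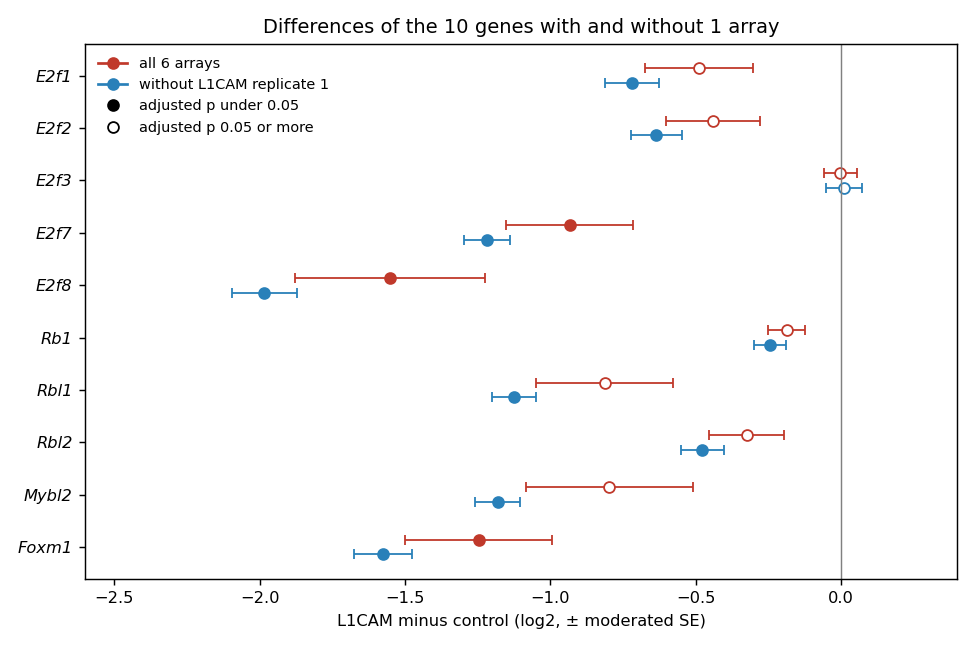
Difference L1CAM minus control (log2, x axis) of each regulator with its moderated SE, for all 6 arrays (3 genes pass) and without L1CAM replicate 1 (9 genes pass). Filled points have an adjusted p under 0.05 over all genes tested, and E2f3 lies near 0 in both fits.

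Partners and relatives of these factors passed at about the rate of all genes tested (15.0%). Among the other E2F and DP genes, 1 of 5 was called higher and none lower, with a median difference of -0.11. E2f4, a repressive E2F that partners p107 and p130, rose by 0.28 (SE 0.07, limma adjusted p = 0.0392), in the direction opposite to the regulators. That call held without L1CAM replicate 1 (0.34) and was lost without any 1 of the other 5 arrays. E2f5 measured -0.02 and E2f6, a repressor without a pocket-binding part, -0.11 (limma adjusted p = 0.90 and 0.21). The DP subunits Tfdp1 and Tfdp2 measured -0.21 and -0.73 (adjusted p = 0.32 and 0.0642). Without L1CAM replicate 1 both DP genes were called lower, at -0.37 and -1.02 (adjusted p = 0.00263 and 3.55e-05). Of 8 genes of the MuvB core, MYB relatives and the DREAM kinase, 1 fell: Lin9, a core subunit needed with B-MYB, at -0.73 (SE 0.20, limma adjusted p = 0.047). Mybl1, a relative of B-MYB, measured -0.54 and Rbbp4, a histone-binding MuvB subunit, -0.16 (adjusted p = 0.059 and 0.0885). The list median was -0.17, and Lin9 passed in 1 of the 6 fits that leave out an array, the one without L1CAM replicate 1. In that fit 3 of the list fell, against 12.9% of all genes.

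Genes that set RB activity moved in both directions. Of 12 cyclin D, RB kinase and CDK inhibitor genes, 5 fell and 1 rose, with a median of -0.21. Of all genes tested, 8.19% fell and 6.85% rose. Cdk6, a kinase that phosphorylates RB with D cyclins, rose by 0.69 (SE 0.07, limma adjusted p = 0.00135), and it remained called whichever array was left out. The falls were in Cdk2, the partner of cyclins E and A (-0.49), the inhibitor Cdkn2d (-0.40) and the D cyclin Ccnd3 (-0.35). Ccnd1 (-0.31) and the inhibitor Cdkn1b (-0.24) also fell and are named after their values were seen. The inhibitor Cdkn2c measured -0.78 and Ccnd2 -0.19 (limma adjusted p = 0.0513 and 0.0621). Without any 1 of L1CAM replicate 2, L1CAM replicate 3, control replicate 2 or control replicate 3, Cdk6 alone of this list passed. Without L1CAM replicate 1, 7 fell and 2 rose, against 12.9% and 12.0% of all genes.

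Of 8 genes of RB-bound chromatin enzymes and E2F turnover, 2 fell and none rose, with a median of -0.16. Of all genes tested, 8.19% fell and 6.85% rose. Fbxo5, the inhibitor of the anaphase-promoting complex known as EMI1 and an E2F target, fell by 1.58 (SE 0.44) with a limma adjusted p of 0.04997, on the edge of the threshold. The deacetylase Hdac1, a partner of RB, fell by 0.29. Sin3a, a co-repressor scaffold, measured -0.20 and Fbxw7, a ubiquitin ligase subunit that targets cyclin E, 0.29 (adjusted p = 0.089 and 0.102). Fbxo5 and Hdac1 each passed in 1 of the 6 fits that leave out an array, the one without L1CAM replicate 1. In that fit 3 of the list fell and 1 rose, Fbxw7 at 0.39 (adjusted p = 0.0132). Of all genes in the same fit, 12.9% fell and 12.0% rose.

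Genes known as targets of these factors fell in large number. Their lists were drawn up with earlier results of these data known, so the counts describe these lists and are no independent support. Over all genes tested, 8.19% were called lower and 6.85% higher. Of 24 G1/S genes known as E2F targets, 17 fell and none rose, with differences from -1.55 to -0.46 and a median of -1.01. Among them were Cdc45, a subunit of the replicative helicase (-1.55, SE 0.33), Rrm2, a ribonucleotide reductase subunit (-1.55, SE 0.36), and the cyclin Ccne2 (-1.50, SE 0.39). The origin licensing genes Cdt1 (-0.85) and Cdc6 (-1.01) had limma adjusted p of 0.0517 and 0.0598. Of 25 G2/M genes known as FOXM1, B-MYB and MuvB targets, 23 fell and none rose, with differences from -1.74 to -0.50 and a median of -1.18. Among them were the cyclin Ccnf (-1.74, SE 0.33), the kinetochore gene Cenpf (-1.63, SE 0.30) and the spindle gene Hmmr (-1.61, SE 0.33). Cenpa, the centromeric histone, measured -0.80 and the phosphatase Cdc25b -0.50 (adjusted p = 0.0533 and 0.134). The G1/S and G2/M lists share the dependence on single arrays. Without L1CAM replicate 1, 24 of 24 and 25 of 25 were called lower, against 12.9% of all genes in that fit. Leaving out any 1 other array gave 1 to 4 and 0 to 9, against 2.90% to 4.80% of all genes called lower.

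**Figure D3:**
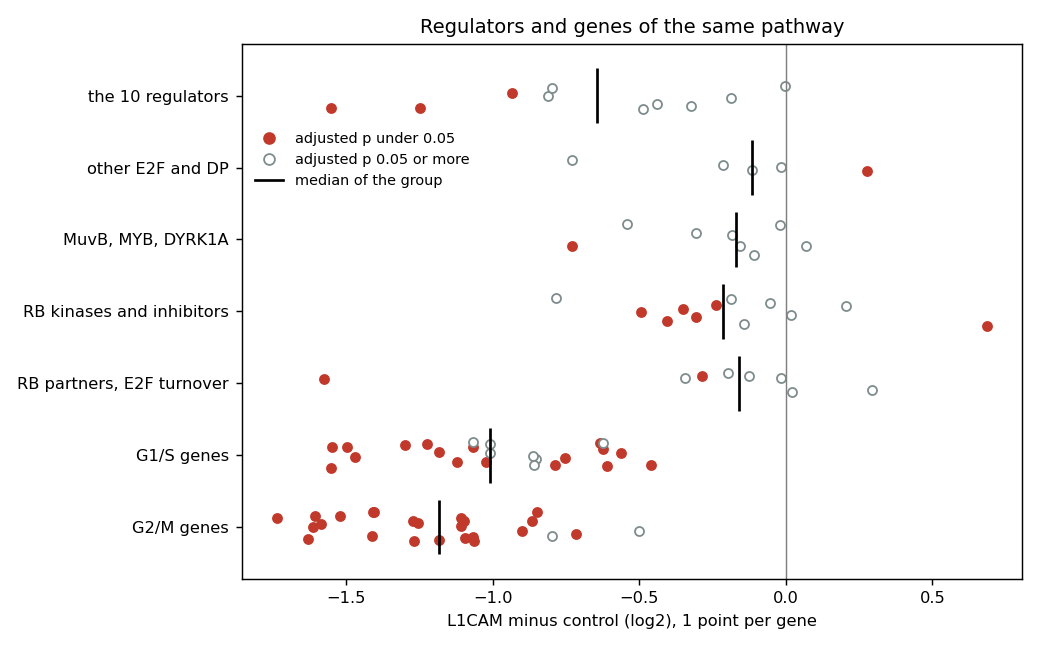
Difference L1CAM minus control (log2, x axis) of each gene of the pathway, 1 point per gene, grouped by role, with the median of each group as a line. The G1/S and G2/M medians lie at -1.01 and -1.18, left of the 10 regulators at -0.64, while E2f4 and Cdk6 are the only called points right of 0.

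In regulators and targets alike, L1CAM replicate 1 had the highest mean of the L1CAM arrays and control replicate 1 the lowest of the control arrays. The mean of the 10 regulators lay at -0.21, -0.91 and -0.93 from the control mean in L1CAM replicates 1, 2 and 3, against -0.11, 0.08 and 0.03 in control replicates 1, 2 and 3. For the G2/M genes it was -0.49, -1.61 and -1.50 in L1CAM cells and -0.24, 0.17 and 0.07 in control cells. Control replicate 1 was the lowest control array for 9 of 10 regulators. The mean of the endothelial markers lay between -0.11 and -0.07 on the L1CAM arrays, and that of all genes between -0.0025 and 0.0042. The difference was below 0 for 9 of 10 endothelial markers, and for 8 of 10 every L1CAM array lay below every control array, against 16.0% of all genes.

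**Figure D4:**
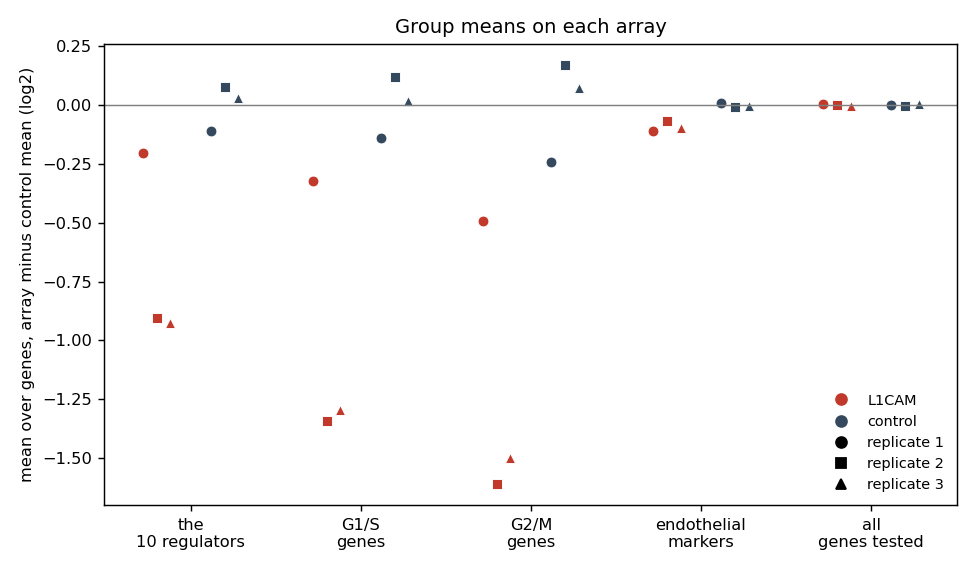
Mean over the genes of a group on each array, relative to the mean of the control arrays (log2, y axis), with L1CAM arrays left of control arrays in each group. L1CAM replicate 1 sits between its fellow replicates and the control arrays for the regulators, the G1/S genes and the G2/M genes, but not for the endothelial markers.

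The genes whose pattern over the 6 arrays lay nearest to Foxm1, by Euclidean distance between log2 values centred on each gene's mean, were Birc5, Prr11 and Zwilch. Their distances were 0.10, 0.13 and 0.16. Birc5, which encodes survivin, had a difference of -1.25, Prr11 -1.23 and Zwilch, a kinetochore protein, -1.19, and all 3 passed the test. Of the 6 fits that leave out an array, Birc5 and Prr11 each passed in 1 and Zwilch in 2. Birc5 is also counted among the G2/M genes above. Nearest to E2f1 were Palm, Sema7a and Ephb1 at distances of 0.15, 0.16 and 0.16. Their differences were -0.47, -0.51 and -0.56, and none passed (limma adjusted p = 0.0896, 0.151 and 0.0588). These genes were chosen by the same values, so their differences and test outcomes follow from the choice and add no support. With 6 arrays such nearness describes these samples only.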

How the data were processed

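The authors deposited 1 log2 value per probe set and array. According to the submitters' processing notes, RMA (background correction, normalization and probe summary) was run in version 1.1 of Affymetrix Expression Console, with no further settings named. The array medians lay between 6.55 and 6.58. Of 35512 probe sets, 21789 had 1 gene symbol, updated through Entrez identifiers to RefSeq (GRCm38.p6, 0 symbols changed). Each of 19938 genes was read from its brightest probe set by mean.

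The groups were compared in R 4.3.3 with limma 3.58.1 (lmFit, eBayes), in a two-sided test without covariates and with Benjamini-Hochberg adjustment over all genes at 0.05. Differences are L1CAM minus control. SE and intervals are moderated. The fit was tested on simulated data. Figures were drawn with matplotlib 3.10.9 in Python 3.11.15.

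The regulators, pathway lists and marker lists were chosen with earlier results of these data known. Of the lists, 5 genes were not analysed here. Named genes are the regulators, and of each list up to 3 called per direction by size and up to 2 not called by p (lists of 5 or fewer in full), L1cam, Mki67, and the 3 genes nearest to Foxm1 and to E2f1. Top2a was among the fixed markers. The alternatives were another quantile normalization, median centring, leaving out dim genes, averaging probe sets, no moderation, another variance prior, array weights, a replicate block and leaving out each array.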

Additional observations from a re-analysis of the deposited data

How the results depend on the processing

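The differences of the regulators other than E2f3 kept their sign in all 14 alternative fits. E2f3, at -0.0024, changed sign in 5: 0.0101 after another quantile normalization, 0.0405 as the mean of its probe sets, and 0.0091, 0.0226 and 0.004 when L1CAM replicate 1, L1CAM replicate 3 or control replicate 2 was left out (range over the 6 arrays -0.0388 to 0.0226). Leaving out 1 array gave 1033 to 4952 genes called over the whole array against 2999 with all arrays, and 0 to 9 regulators called lower against 3. It gave 0 to 3 called other E2F and DP genes, 0 to 3 of the MuvB list, 1 to 24 of the G1/S genes, 0 to 25 of the G2/M genes, 1 to 9 of the RB kinase list and 0 to 4 of the RB partner list. No regulator was called higher in any of these fits. The ordinary linear model called 581 genes, of which 0 were regulators, 1 was in the RB kinase list and 0 were in each of the other 5 lists. Array weights, which gave L1CAM replicate 1 the lowest weight (0.32), called 5191 genes, with 9 regulators lower and 3 other E2F and DP genes, 5 of the MuvB list and 4 of the RB partner list. The trend and robust prior called 1 regulator (Foxm1, no longer E2f7 or E2f8), 5 G1/S genes, 5 G2/M genes and 1 RB partner. Another quantile normalization called 0 of the MuvB list and 1 RB partner, and the filter on dim probe sets called 3 of the MuvB list and also Rbl1 (adjusted p = 0.0477). The replicate block called 2067 genes and 2 regulators (E2f7 had an adjusted p of 0.0525), with 0 other E2F and DP genes, 0 of the MuvB list, 5 G1/S genes, 8 G2/M genes, 3 of the RB kinase list and 1 RB partner. Same-numbered arrays did not deviate together (correlations of -0.10, -0.10 and -0.03 across genes), so the numbers were not taken to pair the samples. Fits without an array have fewer samples. What else moved these counts was not tested.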

Other observations

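E2f1, Rbl1 and Mybl2 all lie on chromosome 2. The median difference of its 1737 genes was 0.02 on the log2 scale, and 12.1% of them were called, against 15.0% of all genes tested.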
